A study of Homo sapiens with 9 samples.

Results

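The late-rising starts were 7 transcription start sites whose nascent RNA signal was near or below the mock level 3 h after UV-C and at least doubled by 16 h in each of 3 cell lines. They were chosen from 7936 start identifiers measured in every library. The level of a start was log2(signal + 0.5), where the signal was the mean per 200-bp bin over the 10 kb downstream of the start. A start was kept when its level at 3 h minus its own mock was under 0.5, its level at 16 h minus mock was 1 or more, both in each line, and its mean signal over the 3 libraries at 16 h was 2 or more. The 7 members made up 0.0882% of all identifiers and 0.227% of the 3078 identifiers with a mean 16 h signal of 2 or more. The values that chose them are mock, 3 h and 16 h of every line, so the members' changes over time from 0 to 10 kb are given as a description, and no test of them is reported.

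Nascent RNA was profiled in 9 BrU-seq libraries of RPE1, a human cell line of the retinal pigment epithelium, with 1 library for each line and condition. All lines carried the iCas9 cassette and the p53/puro double knockout. WT had no further change, KO lacked STK19, and rescue was the STK19 knockout with an STK19-TY transgene put back; mock cells received no UV-C, and the others were sampled 3 h or 16 h after 12 J/m2. The sources used here give neither the promoter of the transgene nor the number of clones behind each line. The question was how STK19 bears on the recovery of transcription after UV-C. With no repeated culture, no value below has an error between replicates.

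In BrU-seq, cells take up bromouridine during a short pulse and an antibody then captures the RNA that carries it, so the signal follows RNA synthesis and not RNA stability. UV-C leaves bulky lesions in DNA that stop RNA polymerase II on the transcribed strand, and signal is therefore usually lost first far from the start. Transcription-coupled repair, the pathway in which STK19 acts together with CSB, CSA and the repair complex TFIIH, removes these lesions and allows synthesis to resume. In bulk RNA, more cells transcribing a gene and more RNA made per cell cannot be told apart.

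None of the 7 members could be paired with a gene name: 1 of the 7936 identifiers had a match in the gene table used here, LINC01426, and it was not a member. Members are therefore called by number, in the order of their mean 16 h signal, and 2 are given by identifier: member 1 is uc009xts.4 and member 4 is uc003hrc.4. Functions, gene ends, STK19 itself, cell type markers and lists of UV-responsive genes were not analysed here.

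Total signal differed little between libraries, from 18577503 to 21261141, because the authors had scaled it. Depth differed 13.1-fold: the smallest step of signal was 0.373 in WT at 16 h and 4.88 in KO at 3 h. The step is what the thinnest piece of coverage is worth, and 1 read can fill several bins, so steps are not independent reads. Over the 3996 identifiers used in the fits, the median level at 16 h minus mock was 0.19 for WT, 0.41 for KO and 0.63 for rescue; at 3 h minus mock it was 0.48, 0.14 and 0.14.

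Late starts without an early change were few among starts with a late change. Of the 3078 identifiers with enough signal, 143 (4.65%) were 1 or more above mock at 16 h in each line. Of these, 136 were at or above the 3 h limit in at least 1 line. Among all 3078, only 37.7% were under that limit in each line, so most identifiers failed it whatever their late change. Both changes subtract the same mock library, so a low mock value raises both. WT alone removed most of the 143: 128 were at or above the limit in WT, 83 for KO, 83 for rescue and 54 in every line. The members' median mean mock signal was 2.24, near that of those 136 at 2.20. Their median 3 h change in WT was 0.25 against 1.26, which the rule itself fixes. A further 6 identifiers met both limits with a mean 16 h signal under 2.

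Some members lay close to the limits. Just inside the 16 h limit were members 6, 2 and 5, with smallest changes of 1.01, 1.11 and 1.16, and the nearest outside had 0.996, 0.97 and 0.95. Just inside the 3 h limit were members 2, 4 and 3, with largest changes of 0.49, 0.45 and 0.35, and the nearest outside had 0.50, 0.52 and 0.55. The lowest mean 16 h signals inside were 2.52 for member 7, 3.18 for member 6 and 6.90 for member 5, and the highest outside were 1.84, 1.76 and 1.71. Every member was above mock at 3 h in at least 1 line, so a 3 h limit of 0 left no member, and "only by 16 h" holds for these starts only within the limit of 0.5.

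**Figure D1:**
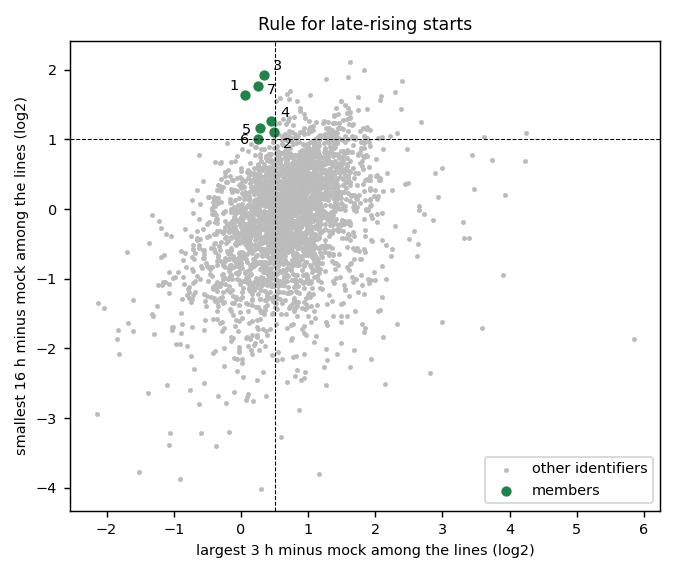
Each point is 1 of the 3078 identifiers with a mean 16 h signal of 2 or more; the x axis is the largest 3 h minus mock change among the 3 lines and the y axis the smallest 16 h minus mock change, both in log2(signal + 0.5), with dashed lines at the limits. The 7 numbered members fill the upper left corner, and the other 136 of the 143 points above the horizontal line lie to the right of the vertical one.

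Member 1, the start with the highest mean 16 h signal, did so in all 3 lines with no early change. Its WT signal was 1.57 in mock, 1.37 at 3 h and 6.72 at 16 h. The KO line gave 4.04, 4.0016 and 13.6 for the same conditions, and the rescue line 2.45, 2.59 and 17.6. All 3 libraries at 16 h lay above all 6 others, and the 3 h change stayed between -0.15 and 0.07. The 16 h change was 1.80 for WT, 1.64 for KO and 2.62 for rescue.

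Member 2 had the highest mock signal of the set, a mean of 5.09, and the smallest changes apart from member 6. Its signal was 4.55, 6.57 and 10.4 in WT at mock, 3 h and 16 h, 5.98, 7.12 and 14.0 in KO, and 4.76, 3.76 and 12.0 with rescue. The 16 h libraries again lay above all others, with changes of 1.11, 1.16 and 1.24, so its lines were close to each other. At 3 h the lines were on both sides of mock, with WT at 0.49, KO at 0.24 and rescue at -0.31.

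Member 3 changed almost equally in every line. Its signal was 1.84, 2.48 and 8.66 in WT, 2.86, 3.32 and 12.8 for KO, and 3.26, 2.15 and 13.8 with rescue. The 16 h changes of 1.97, 1.98 and 1.92 had an SD of 0.03 over the lines, the smallest of the set. Its smallest change, 1.92, was also the largest smallest change of the set, ahead of member 7 at 1.76 and member 1 at 1.64.

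Member 4 differed most between lines in level. Its signal was 3.74, 5.27 and 17.7 in WT but 0.27, 0.29 and 1.36 in KO, and 0.52, 0.49 and 5.09 with rescue. The KO level at 16 h lay below the WT level in mock. The KO values rest on 21 steps of coverage in mock, 3 at 3 h and 36 at 16 h, and only 3 of its 50 bins held signal in KO at 3 h, so the 3 h change of 0.04 in KO shows little. As ratios of signal, 16 h over mock was 4.73 in WT, 5.001 in KO and 9.85 in rescue, whereas on the log2(signal + 0.5) scale, which understates low levels, the changes were 2.10, 1.27 and 2.46.

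Members 5, 6 and 7 had lower signal. Member 5 measured 4.17, 4.15 and 9.93 in WT, 1.36, 1.76 and 6.08 in KO, and 1.197, 0.39 and 4.68 with rescue. Its 16 h change was larger in KO, 1.82, and rescue, 1.61, than in WT, 1.16, but every KO and rescue level at a given time lay below that of WT. Member 6 measured 1.35, 1.70 and 3.78 in WT, 1.06, 0.78 and 2.64 in KO, and 1.03, 0.49 and 3.12 in rescue. Its changes of 1.21, 1.01 and 1.24 were among the smallest, and it was below mock at 3 h in both STK19-edited lines. Those 3 h values rest on only 8 steps in KO and 10 in rescue, and the 3 h value of member 5 in rescue on 8. Member 7 was nearly silent before 16 h: 0.32, 0.27 and 2.52 in WT, 0.41, 0.59 and 3.09 for KO, and 0.22, 0.00 and 1.94 in rescue. Its mock values rest on 12, 32 and 8 steps and its 3 h values on 18, 6 and 0, while 42 to 50 of its bins held signal at 16 h in rescue and WT and 32 in KO.

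**Figure D2:**
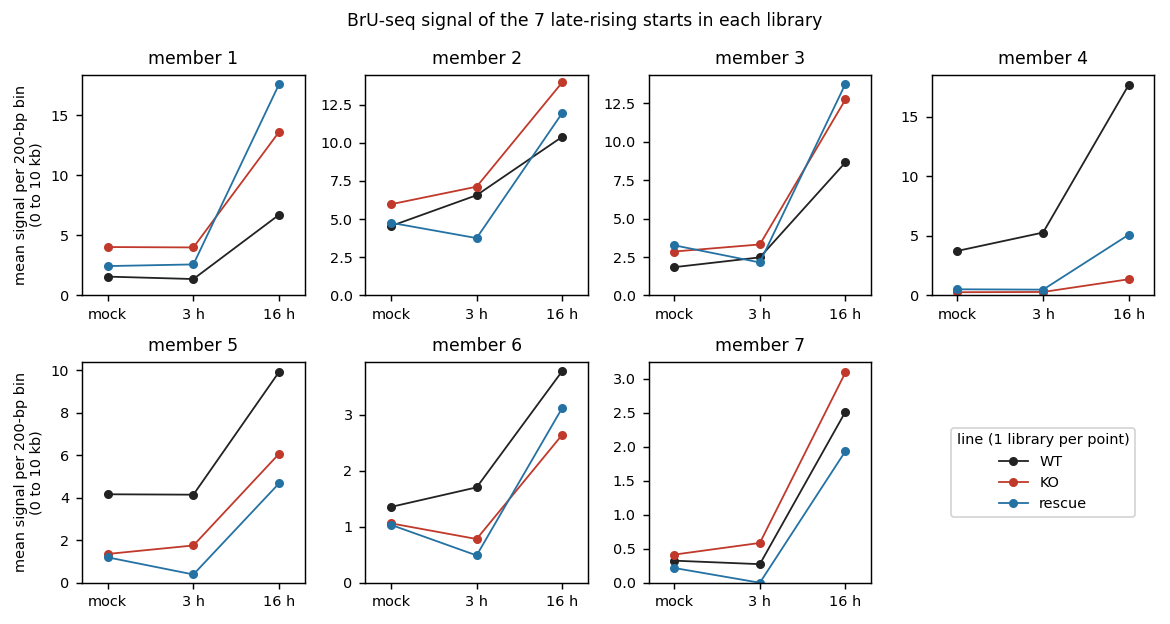
Mean signal per 200-bp bin from 0 to 10 kb (y axes from 0, with their own scale) in mock, 3 h and 16 h, 1 panel per member and 1 point per library, coloured by line. The 16 h point is the highest of each curve, WT stands above the other lines at each time for members 4, 5 and 6, and the rescue curve dips at 3 h for members 2, 3, 5, 6 and 7.

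Across the set, the 16 h change had a median of 1.80 in WT, with a range of 1.11 to 2.10. In KO the median was 1.64 (1.01 to 1.98) and in rescue 1.76 (1.24 to 2.62). Over the 3078 identifiers the medians were 0.13, 0.55 and 0.64, and a change of 1 or more occurred in 12.8% of them for WT, 26.5% for KO and 28.6% for rescue (6.53%, 12.1% and 13.3% of all 7936, and 2.04% in each line). The members' KO minus WT difference in the 16 h change had a median of 0.01, and ran from -0.83 for member 4 to 0.66 for member 5; the next lowest were -0.20 for member 6 and -0.16 for member 1, and the next highest 0.10 for member 7 and 0.05 for member 2. The sign of that median turned with the scaling, the pseudocount and the window (-0.21 with median scaling, -0.055 with a pseudocount of 0.1, -0.54 from 0 to 25 kb), and the rule bounds the difference by asking for 1 or more in both lines.

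A 3 h change under 0.5 in each line held for 37.7% of the 3078 identifiers and 67.6% of all. At 3 h the rescue line stood below mock in 6 of 7 members, with a median change of -0.51 and a lowest value of -0.93 for member 5. WT was below mock in 3 of 7 (median 0.25) and KO in 2 of 7 (median 0.19). Of the 3078 identifiers, 36.2% were below mock in rescue, 21.5% in WT and 36.2% in KO, and the limit of 0.5 at 3 h favours low values among the members. Over the 3078 identifiers the 3 h medians were 0.51, 0.23 and 0.24. The depth of the rescue library at 3 h, with a step of 2.44, was the second lowest, and its part in these values was not tested. From 3 h to 16 h the members' median change was 1.62 for WT, 1.54 for KO and 2.43 for rescue.

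Levels between lines were not used by the rule, and were tested over the 3 conditions with limma, with the condition as a block. Limma's p-value sets a difference against the scatter of the lines from condition to condition, not against the spread between cultures. That scatter was largely pooled over all identifiers tested, so the p-value says little on the steadiness of a single start. The members' SEs for KO minus WT ran only from 0.33 to 0.35, with 4 residual degrees of freedom for each start. The rule asked each line of a member for a rise at 16 h and not at 3 h, which can lower its residuals. Of 3996 identifiers tested, 231 (5.78%) differed between KO and WT at an adjusted p under 0.05, 122 higher (3.05%) and 109 lower (2.73%). With median scaling the split was 165 higher and 79 lower, and without the 16 h libraries it was 220 and 555. Of the members, 1 was higher and 1 was lower in KO. The median KO minus WT difference was 0.29 over the members and -0.08 over all tested.

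At single times, 1 member was 1 or more higher in KO than in WT in mock (5.07% of the 3078) and at 3 h (4.39%), and none at 16 h (16.1%). The members 1 or more lower were 2 in mock (7.67%), 2 at 3 h (17.9%) and 1 at 16 h (4.06%). In the first 1 kb alone, KO was 1 or more higher in 0 members in mock (6.95%), 1 at 3 h (10%) and 3 at 16 h (41.7%).

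Member 4 fell in KO by 2.87 on the log2 scale relative to WT (SE 0.35, 95% interval -3.56 to -2.18, limma adjusted p 9.7e-10). As signal, WT was 13.8 times KO in mock and 13.0 times KO at 16 h. The call was lost with no level filter (adjusted p 0.12) and with no condition block (0.15), and held in 9 of 11 alternatives. In rescue its signal was 1.90 times that of KO in mock and 3.75 times at 16 h, and the rescue minus KO difference was 0.77 (95% interval 0.07 to 1.46, limma adjusted p 0.99987).

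Member 1 was higher in KO than in WT by 1.12 (SE 0.33, 95% interval 0.46 to 1.79, limma adjusted p 0.029). Its signal in KO was 2.57 times that in WT in mock, 2.93 times at 3 h and 2.03 times at 16 h. The call was lost without the shallow KO library at 3 h, where the difference was 1.02 and the adjusted p 0.21. It was also lost without the mock libraries (0.56), without the 3 h libraries (0.27), without the filter (0.22) and without the block (0.87).

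The other members did not pass the test. Member 5 was at -1.01 in KO against WT (95% interval -1.70 to -0.33, limma adjusted p 0.066), and passed in 2 of 11 alternatives. Members 2, 3, 6 and 7 lay at 0.29, 0.47, -0.49 and 0.30, with intervals that held 0 and reached from -1.18 to 1.13 over the 4 starts. Between rescue and KO, 3 identifiers (0.0751%) were called by limma, 82 at an unadjusted p under 0.05, 2 higher (0.0501%) and 1 lower (0.025%), and no member was among the 3. The members' rescue minus KO differences ran from -0.68 for member 7 to 0.77 for member 4, with a median of -0.27.

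The KO response at 16 h, set against the mean response of WT and rescue, was fitted over the same 3996 identifiers, and limma made 0 calls (0%), with 165 at an unadjusted p under 0.05. The rule bounds the 16 h change of the members in every line, so nothing is read from this fit about them. It has 2 residual degrees of freedom and recovered 1 of 100 simulated 4-fold changes and 50 of 100 simulated 16-fold changes.

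Within the first 10 kb the lines placed the late signal differently. From 0 to 1 kb the median 16 h change of the members was 1.048 in WT, 2.33 in KO and 2.61 with rescue, and KO exceeded WT in 7 of 7 members. Rescue also exceeded WT there in 7 of 7 (76.8% of the 3078 identifiers), and KO exceeded rescue in 4 of 7 (69.1%). From 5 to 10 kb the medians were 1.68, 0.88 and 1.89, and KO lay below WT in 7 of 7 and below rescue in 7 of 7. The same directions were common elsewhere: KO exceeded WT from 0 to 1 kb in 82.8% of the 3078 identifiers and lay below WT from 5 to 10 kb in 61.9% and below rescue in 68.2%. The median KO minus WT difference from 0 to 1 kb was 1.32 over the members and 1.32 over all, and that from 5 to 10 kb was -1.02 against -0.30. Since the rule bounds the sum over 0 to 10 kb in each line, the windows inside it are not independent of the rule. With each library set to the same median level, KO and rescue each exceeded WT from 0 to 1 kb in 6 of 7, and KO lay below WT and below rescue from 5 to 10 kb in 7 of 7.

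Single members differed in how the lines compared. In member 7 the first 1 kb measured 1.08 in WT mock and 3.14 in WT at 16 h. The values were 0.00 and 4.91 in KO and 0.00 and 2.55 with rescue. From 0 to 10 kb this start had 12 steps in WT mock, 32 in KO mock and 8 in rescue mock. In member 3 the first 1 kb at 16 h measured 18.1 for WT, 43.8 for KO and 23.1 for rescue, while its 5 to 10 kb region measured 7.72, 5.06 and 13.6. At 16 h KO was the highest line in the first 1 kb of member 3 and the lowest from 5 to 10 kb. In member 5 the 5 to 10 kb region at 16 h was 6.36 for WT, 0.75 for KO and 1.90 for rescue.

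The start-proximal ratio, log2 of the first 1 kb over the next 4 kb with 0.5 added to each, put KO at the top at 16 h. Its median over the members was 1.03 in KO, 0.18 in WT and 0.31 in rescue; over 3262 identifiers with a mean signal of at least 1 in both regions it was 0.45, 0.01 and -0.09. KO exceeded WT in 7 of 7 members (72.4% of the 3262), with a median difference of 0.33 over the members and 0.45 over all, and rescue in 6 of 7 (77.2%). In mock the order was another: 1.04 for WT, 0.52 for KO and 0.05 for rescue, with KO above WT in 1 of 7 (29.3%). The highest ratio at 16 h was 2.50 for member 5 in KO, and the lowest was -0.63 for member 6 in WT.

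Beyond 10 kb, in bins the rule did not read, the median late change was above mock in WT and rescue and below it in KO. From 10 to 100 kb the median 16 h change was 0.69 in WT, 0.35 in rescue and -0.25 in KO. WT was above mock in 6 of 7 members, rescue in 6 of 7 and KO in 3 of 7. The WT median is the value of member 4, whose far signal lies beyond a gap in signal, as does that of members 1 and 3. Member 7 counts as above mock in each line although its signal there was at most 0.11 in any library. Over the 3078 identifiers these shares were 68.7%, 68.0% and 51.0%. KO lay below WT in 6 of 7 members (67.1% of all) and below rescue in 7 of 7 (69.0%). With each library set to the same median level, the rescue median turned to -0.28, the KO median was -0.67 and the WT median 0.49. Rescue was then above mock in 2 of 7, and KO lay below rescue in 5 of 7, so the order of the medians was as before and the side of mock on which rescue lay was not.

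From 10 to 25 kb the median change was 1.36 in WT, 0.77 in rescue and -0.06 in KO. Over the 3078 identifiers it was 0.58, 0.40 and 0.13, the same order of lines. From 75 to 100 kb the members' median was 0.31 in WT, 0.12 in rescue and -0.97 in KO, against 0.05, 0.03 and -0.01. Member 3 reached the lowest value there, -2.90 in KO, where the signal went from 19.6 in mock to 2.19 at 16 h. That region lies beyond a gap in signal and is not shown to belong to member 3. With median scaling, KO was above mock from 10 to 25 kb in 1 of 7 members. Without it, KO was above mock there in 3 of 7 (57.4% of the 3078 identifiers). Member 5 was at 1.44 in KO, against 2.14 in WT and 1.36 in rescue, member 6 at 0.12 and member 4 at 0.08. The KO value of member 4 rests on a signal of only 0.07 in mock and 0.10 at 16 h.

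**Figure D3:**
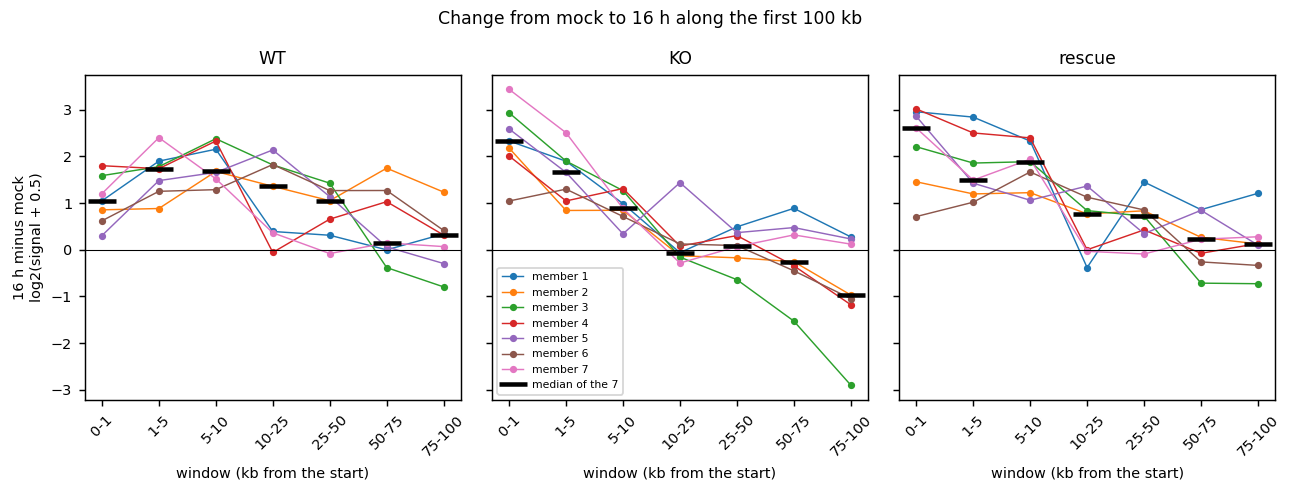
Change from mock to 16 h in log2(signal + 0.5) (y axis) in 7 windows from 0 to 100 kb downstream of the start (x axis), 1 panel per line, 1 coloured curve per member and a black bar for the median of the 7. In KO the medians run from 2.33 in the first 1 kb to -0.97 from 75 to 100 kb, whereas in WT they lie between 1.048 and 1.74 up to 50 kb.

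The spans of signal differed between members. On the mean of the 3 lines at 16 h, in windows of 5 kb with a signal of 0.5 or more, the unbroken span from the start was 10 kb for members 1 and 4, 15 kb for member 7, 35 kb for members 3 and 5, 85 kb for member 6 and 100 kb for member 2. In mock it was 0 kb for member 7, 25 kb for member 5 and 35 kb for member 6, and for members 1 to 4 it was as at 16 h. Members 1, 3 and 4 have strong signal again beyond a gap: the signal of member 4 from 10 to 25 kb was at most 0.10 in any library, and from 25 to 50 kb it was between 4.20 and 8.67.

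Member 2 had signal in all 20 windows, but the far signal is not shown to be its own. On the mean of the 3 lines in mock, its highest 5-kb window started at 80 kb, with a signal of 9.30. The WT signal of its 75 to 100 kb region was 7.05 in mock, 2.42 at 3 h and 17.3 at 16 h. The KO values there were 7.86, 5.54 and 3.77, and those of rescue 6.68, 3.47 and 7.32. WT at 16 h stood above its mock, rescue was near it and KO was below it, while all 3 lines were above mock in the first 10 kb. Member 6, with an 85 kb span, had 0.53, 0.08 and 0.87 in WT there, 0.59, 0.08 and 0.03 for KO, and 0.74, 0.23 and 0.48 for rescue.

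The first 10 kb therefore held a different share of the 100 kb signal by line and time. For member 3 it was 2.38% in WT mock and 12.8% at 16 h, against 2.94% and 34.7% for KO and 3.61% and 17.3% for rescue. The 100 kb of member 3 include the signal beyond its gap, which is not shown to be its own. For member 2 the share was 11.2% and 9.90% in WT, 11.4% and 30.1% for KO, and 10.1% and 16.4% for rescue. The median over the members at 16 h was 22.9% for WT, 33.7% for KO and 21.9% for rescue, against 11.4%, 12.4% and 11.7% in mock. The rule asks for a rise in the first 10 kb, so a larger share at 16 h partly follows from it. No share over all identifiers was taken for comparison.

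**Figure D4:**
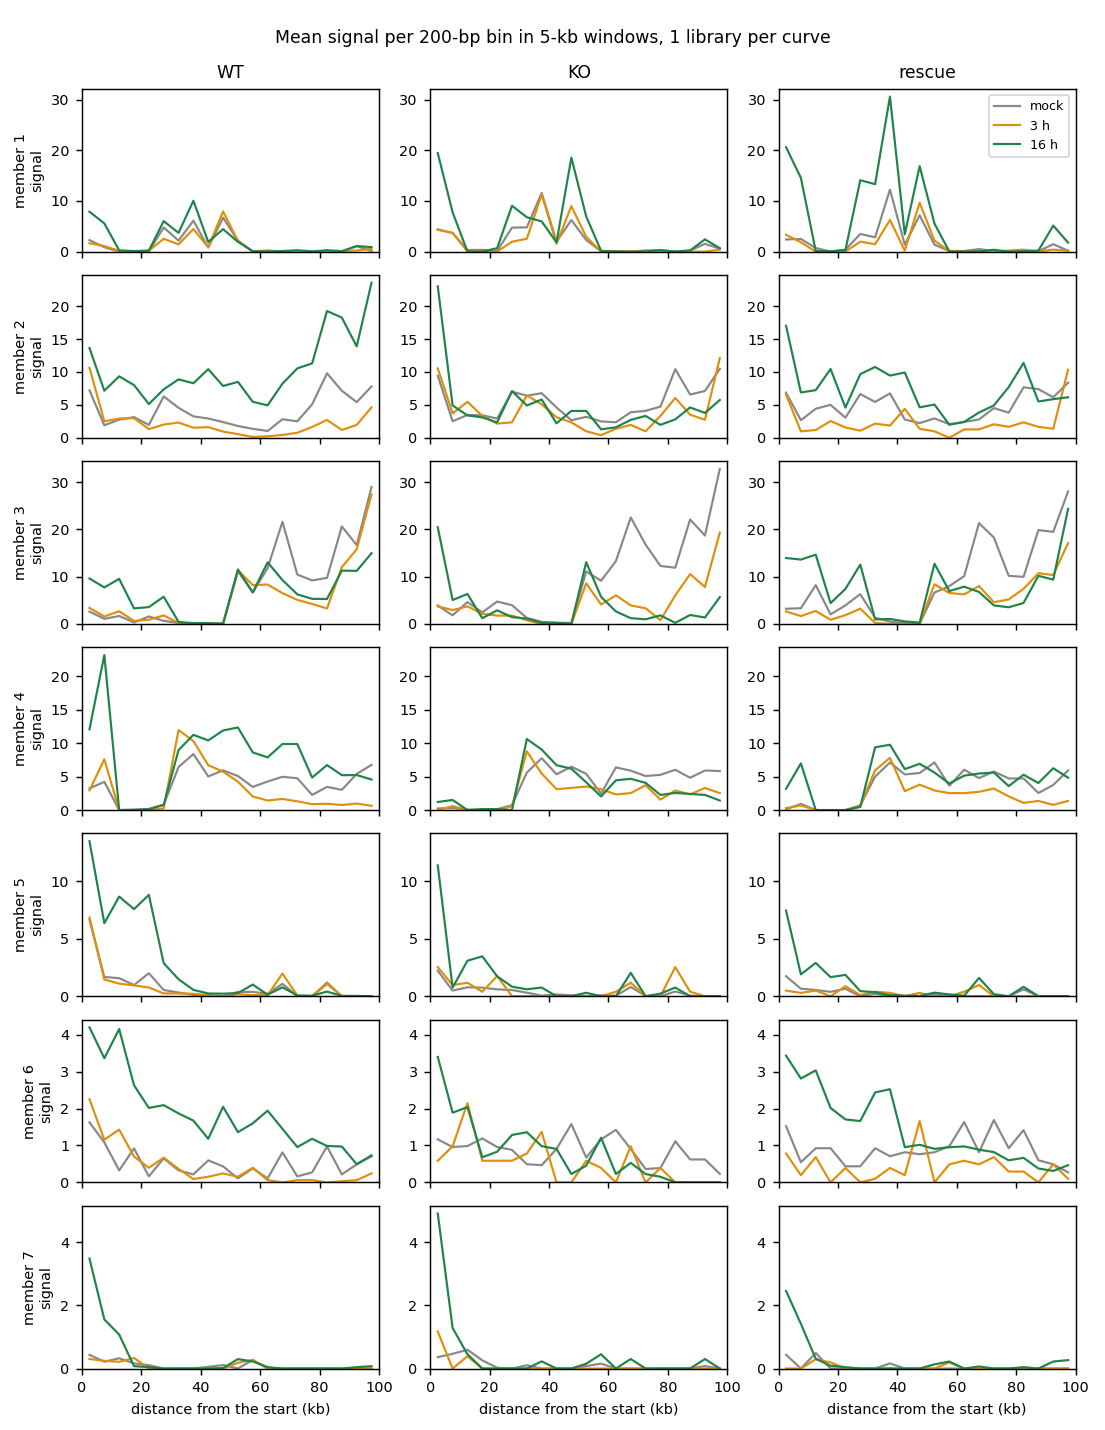
Mean signal per 200-bp bin in 5-kb windows (y axes from 0, shared within a row) against the distance from the start in kb, 1 row per member and 1 column per line, with mock, 3 h and 16 h as curves of 1 library each. The 16 h curve stands above mock over 100 kb for member 2 in WT, whereas in KO it is mostly below mock past 10 kb, and members 1, 3 and 4 show further signal beyond a gap.

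For members 1 and 4, part of that far signal lies in windows of other identifiers that start downstream of the member. Matching of the binned profiles found 9 identifiers whose windows overlap those of 4 members: 6 for member 1, and 1 each for members 3, 4 and 6. The neighbours of members 3 and 6 start upstream, at -64.8 and -108.0 kb, so they place no start in the far signal of those members. None of the 9 is a member, and no pair of members overlapped, the highest correlation between 2 members being 0.87. A match needed a correlation of at least 0.95 in 3 libraries, and a higher one in WT at 16 h; lower limits were tried first and were raised after 1 match, of member 5, proved to be with an identifier holding no signal in its first 10 kb.

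At 16 h, 8 of the 9 neighbours changed less than their member in every line. The rule chose the members, and not the neighbours, for a large 16 h change, so this order largely follows from the rule. The start at 32.0 kb downstream of member 4 changed by 0.59 for WT, 0.59 for KO and 0.56 for rescue at 16 h, against 2.10, 1.27 and 2.46 for member 4. Of the 6 neighbours of member 1, that at 26.0 kb changed by 0.40, 0.62 and 1.93, and that at -18.2 kb by 1.31, 0.19 and 0.98, against 1.80, 1.64 and 2.62. The neighbour of member 6, in the opposite orientation at -108.0 kb, was the exception: it changed by 0.57, 1.34 and 1.38, against 1.21, 1.01 and 1.24. None of the 9 reached 1 in every line, and only 2.04% of all 7936 identifiers did, so nothing is read from this about the members. The sources used here do not say whether the signal was made by strand. Neighbours in the opposite orientation matched the mirrored profiles of members 1 and 6 at 0.989 and 0.999 in WT at 16 h. Windows of both orientations thus hold the same signal there. Transcription from the opposite strand and that of a member therefore cannot be told apart.

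Upstream of the starts, signal was low for some members and not for others. From 5 to 1 kb upstream the 16 h change was between -0.14 and 1.56 in WT, and its median was 0.42 for WT, 0.07 for KO and 0.53 for rescue. From 25 to 5 kb upstream member 6 changed by 2.13 for WT, 0.82 for KO and 1.70 for rescue, from a mock signal of 0.08 in WT to 2.04 at 16 h, so its late signal was not confined to the region downstream of its start. Member 1 changed there by 1.23, 0.68 and 1.47, and member 2 by -0.54, 1.61 and 1.01. Member 3 had at most 0.10 there in any library.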

How the data were processed

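Titles of the samples gave the groups. Each deposited library file holds a coverage signal per 200-bp bin over 1001 columns centred on the start, per the file headers, which the authors had scaled to a near-common total. Every low value was a whole multiple of its library's step, to within 0.02 of a step, and 78.2% to 85.5% of isolated runs filled 2 or 3 bins, so it was read as coverage and no count model was used. Per the labels' protocols, cells were given 2 mM bromouridine for 30 min; the stated time may be the start or the end of the pulse, since labels disagree. The submitters' processing notes name the builds hg38 and GRCh38 and, among others, HOMER 4.8.2 and STAR 2.7.7a; what each did stands in none of the sources. The 3 deposited averaged tables were not used. Of 9805 identifiers, 7936 were in all 9 libraries.

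The rule, the members and the lists were chosen with earlier results of these data known. Levels were log2(signal + 0.5), so changes of low starts are understated. Members to be described were the 5 with the largest smallest change, the 5 with the highest 16 h signal, the 3 with the largest and smallest KO minus WT difference, and those nearest each limit, which took in all 7. Tests between lines used limma 3.58.1 in R 4.3.3 (empirical Bayes with a trend; p-value adjusted by Benjamini-Hochberg, threshold 0.05) on the 3996 identifiers with a mean signal of at least 0.5; all 7 members were among them, which the minimum of the rule ensures. Everything else used Python 3.11.15, numpy 2.4.6 and pandas 2.3.3.

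The fits were tested on simulated data of 3996 identifiers, with 100 changed at each of 3 sizes. KO minus WT recovered 46 of 100 at a log2 size of 1 and 93 of 100 at 2, with 11 false calls, and rescue minus KO recovered 40 and 95, with 9 false calls. The KO response at 16 h recovered 0 at 1, 1 at 2 and 50 at 4, with 1 false call; the size of 4 was added after the smaller sizes had shown almost no recovery. Alternatives were the pseudocount, the window, median scaling, the level filter, the limits, each line or condition left out and the block; leaving out the shallow KO library at 3 h was added after seeing the data.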

Additional observations from a re-analysis of the deposited data

Results flagged for a closer look

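With 1 library per line and condition, groups were not searched for an outlying library. The values below are those where 2 lines moved in opposite directions from mock; none of these differences was tested, and opposite signs between small values are common. They are changes in log2(signal + 0.5).

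From 10 to 100 kb at 16 h, KO lay below mock while WT and rescue lay above it in 3 members. Member 2 was at -0.46 in KO, 1.29 in WT and 0.48 in rescue. Member 4 was at -0.29 in KO, 0.69 in WT and 0.16 in rescue, and that region lies beyond a gap and holds the window of another start. Member 6 was at -0.25 in KO, 1.19 in WT and 0.35 in rescue.

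From 0 to 10 kb at 3 h every member had lines on both sides of mock. Rescue was the lower one for member 2 (-0.31, against 0.49 in WT and 0.24 in KO) and member 3 (-0.51, against 0.35 in WT and 0.19 in KO). It was also the lower one for member 4 (-0.041, against 0.45 in WT and 0.039 in KO). Member 5 was at -0.93 in rescue, -0.0058 in WT and 0.28 in KO, and member 7 at -0.52 in rescue, -0.092 in WT and 0.25 in KO. In member 6 both KO (-0.28) and rescue (-0.63) lay below mock and WT lay above it (0.25). Member 1 was the only one with rescue above mock (0.066), against -0.15 in WT and -0.011 in KO.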

How the results depend on the processing

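No paired analysis was possible because each line and condition has 1 library, so replicate numbers pair nothing; between lines, the condition served as the block. Membership depended on the limits and the window: the number of members was 12 from 0 to 5 kb (3 of the 7), 12 from 0 to 25 kb (2 of the 7), 0 with a 3 h limit of 0, 44 with 1, 78 with a 16 h limit of 0.5, 3 with 1.5 and 13 with no minimum signal. It was 128 without WT, 34 without KO, 14 without rescue and 11 with the KO 3 h library left out. Median scaling gave 7, of which 3 are members, and pseudocounts of 0.1 and 1 gave 10 and 8, with 6 and 5 of the members. The steps behind low mock and 3 h values limit members 4 and 7 most.

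The SD over the 3 lines serves here only as a yardstick. Each line had 1 library per condition and the rule asked each line for a change of 1 or more, so that SD measures no replicate spread. The members' median 16 h change moved by more than it under each setting below but for rescue from 0 to 5 kb (1.83), and the cause was not tested. For WT, KO and rescue it was 2.03, 1.97 and 2.04 with a pseudocount of 0.1, 1.41, 1.53 and 1.37 with 1, 1.53, 0.94 and 1.29 from 0 to 25 kb, and 1.61, 1.23 and 1.13 with median scaling. From 0 to 5 kb it was 1.59 in WT and 2.03 in KO. The median KO minus WT difference was -0.055 with a pseudocount of 0.1, 0.43 from 0 to 5 kb, -0.54 from 0 to 25 kb and -0.21 with median scaling. The rescue change from 10 to 100 kb turned to -0.28 with median scaling, and the KO start-proximal ratio was 1.497 over the next 9 kb.

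By limma, KO minus WT gave 7 calls with no filter, 26 without mock, 56 without 3 h, 775 without 16 h, 10 with no block and 97 without the KO 3 h library. Rescue minus KO gave 0 with median scaling, with no filter, without 3 h and with no block. The KO response at 16 h gave 102 with no filter. Of 195 values under the alternatives, 128 kept their direction and side of the threshold or stayed within the SD over the lines. Another 32 moved by more than that SD, which is no replicate spread, and 4 turned sign. The rest crossed the threshold or changed a count by over 1.5 times, 13 upward and 18 downward.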
